A study of Saccharomyces cerevisiae with 2 samples.

Results

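PGK1, CDC19, ADH1, TDH3 and ENO2 encode enzymes of glycolysis and ethanol fermentation in the budding yeast Saccharomyces cerevisiae, and they are widely used as examples of highly transcribed genes. They are defined by name and function, with no tag value in the rule, but were proposed with earlier results of these data known. They are 5 of the 6021 protein-coding genes listed in the RefSeq table of assembly R64. Each was examined over its coding span and the 1000 bp on both sides, in maps of mononucleosomal DNA. The cells came from a strain with the alleles PHO4-MYC::TRP1 and CBF1-3HA::LEU2, so both conditions carried the tagged transcription factors Pho4 and Cbf1. Log-phase cultures spent 3 hours in medium lacking phosphate. For the next 80 minutes they had either still 0 mM phosphate, called starvation here, or 10 mM, called high phosphate. Chromatin was cut with micrococcal nuclease, an enzyme that prefers the linker DNA between nucleosomes, and mononucleosome-sized fragments were sequenced without an antibody. Sonication is named in a short label of both samples but in none of the protocols.

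There was 1 library per condition. No test between conditions was therefore possible, and an effect of phosphate and a property of a single library cannot be told apart. The starvation library held 1001229 tags on the 16 nuclear chromosomes and the high phosphate library 2598022, and the median 1 kb bin held 74 and 225 tags. The 5 regions together held 2155 starvation tags and 3204 high phosphate tags. All intervals given are 95% exact intervals that cover counting error only. RNA was not measured, so the label of high transcription could not be checked in these cells.

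Glycolysis splits glucose into pyruvate, and yeast growing on sugar turns most of that pyruvate into ethanol. The late steps carried by these genes return ATP and recycle the electron carrier NAD. The first of them, the reaction of glyceraldehyde-3-phosphate dehydrogenase, takes up inorganic phosphate. In yeast chromatin a nucleosome-poor stretch usually lies before a gene, a well-placed nucleosome follows near its start, and coding regions of highly transcribed genes have been described as holding fewer nucleosomes.

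The genes lie on 5 different chromosomes. TDH3 (YGR192C), the main glyceraldehyde-3-phosphate dehydrogenase gene, is read from the minus strand of chromosome 7 between about 882800 and 883800. PGK1 (YCR012W), which encodes phosphoglycerate kinase, is read from the plus strand of chromosome 3 between about 137700 and 139000. ENO2 (YHR174W), an enolase gene, is on the plus strand of chromosome 8 between about 451300 and 452600. CDC19 (YAL038W), the main pyruvate kinase gene, is on the plus strand of chromosome 1 between about 71800 and 73300. ADH1 (YOL086C), the alcohol dehydrogenase gene that makes ethanol from acetaldehyde, is on the minus strand of chromosome 15 between about 159500 and 160600. Positions equal those of assembly R64 and were used on tags placed on the October 2003 genome release, where they are approximate to about 50 bp. They are rounded to 100 bp here, and distances below are counted from the coding start in the direction of transcription.

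The coding spans of all 5 genes were densely tagged in starvation and had an ordinary or lower density in high phosphate. After scaling to nuclear tag totals, coding density was 2.80 to 3.22 times as high in starvation, and 5 of 5 genes were at least 2-fold higher. Among 11550 nuclear 1 kb bins holding 20 or more tags in the libraries together, 6.44% were at least 2-fold higher in starvation. Levels below are tags per kb divided by the median 1 kb bin of the same library, so that 1 is the ordinary density of that library.

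TDH3 had 180 starvation tags and 167 high phosphate tags over 999 bp. Its level was 2.43 (95% exact Poisson interval 2.09 to 2.82) in starvation and 0.743 (0.635 to 0.865) in high phosphate. The log2 ratio (starvation over high phosphate) of coding density was 1.48 (95% exact conditional binomial interval 1.17 to 1.80). TDH3 was thus above the ordinary density in one library and below it in the other.

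PGK1 had 322 starvation tags and 286 high phosphate tags over 1251 bp. Its level was 3.48 (3.11 to 3.88) in starvation, and this was the highest starvation level among the 5 genes. In high phosphate it was 1.02 (0.902 to 1.14), which includes the ordinary density of 1. The log2 ratio was 1.55 (1.31 to 1.78).

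ENO2 had 246 starvation tags and 198 high phosphate tags over 1314 bp. Its level was 2.53 (2.22 to 2.87) in starvation and 0.670 (0.580 to 0.770) in high phosphate. The log2 ratio was 1.69 (1.41 to 1.97). ENO2 combined the lowest high phosphate level of the 5 with the largest ratio, although all 5 intervals of the ratio overlap.

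CDC19, the longest of the spans at 1503 bp, had 372 starvation tags and 344 high phosphate tags. Its level was 3.34 (3.01 to 3.70) in starvation and 1.02 (0.913 to 1.13) in high phosphate. The log2 ratio was 1.49 (1.27 to 1.70). CDC19 and PGK1 thus had nearly the same level in each library.

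ADH1 had 234 starvation tags and 200 high phosphate tags over 1047 bp. Its level was 3.02 (2.65 to 3.43) in starvation and 0.849 (0.735 to 0.975) in high phosphate. The log2 ratio was 1.60 (1.32 to 1.88). In order of the starvation level the genes ran PGK1, CDC19, ADH1, ENO2 and TDH3. Neighbours in this order had overlapping intervals, while the intervals of PGK1 and CDC19 lay above those of ENO2 and TDH3.

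**Figure D1:**
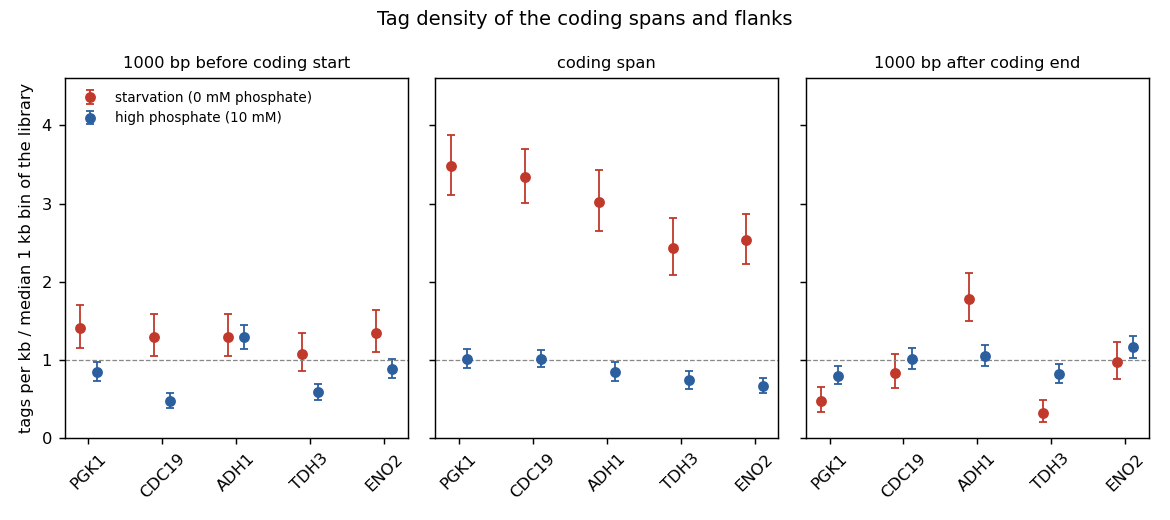
Tags per kb divided by the median 1 kb bin of the same library (vertical axis) for the 1000 bp before the coding start, the coding span and the 1000 bp after the coding end of each gene; points are single libraries and bars are 95% exact Poisson intervals. The starvation points of the coding spans lie between 2.43 and 3.48 and the high phosphate points between 0.670 and 1.02.

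The coding spans were set beside the nuclear windows of the same length that held 20 or more tags in the libraries together. Among these windows they stood near the upper edge of the starvation library. As many or more starvation tags were found in 0.486% of 9264 windows of the length of PGK1 and in 0.492% of 7726 windows of the length of CDC19. The shares were 1.70% for ADH1, 3.94% for ENO2 and 5.38% for TDH3. By the 2-fold measure, 5 of 5 coding spans held at least 2 times the median bin in starvation, where 11.6% of 1 kb bins did. In high phosphate 0 of 5 did, where the share of bins was 0.0779%. That library scarcely had windows of such density anywhere, so its count of 0 says little about the genes. The 2-fold starvation level and the 2-fold ratio given above are not separate findings. Both held in 5.38% of 1 kb bins, and the ratio, with or without the level, in 6.44%.

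In the high phosphate library the same spans were ordinary or low. PGK1 exceeded 52.5% of windows of its length in high phosphate tags and CDC19 53.2%. ADH1 exceeded 22.0%, TDH3 10.7% and ENO2 5.59%. None of the 5 coding spans was at or below 0.5 times the median bin in either library, a level that 7.84% of bins reached in starvation and 2.65% in high phosphate. The ratio itself was rarer than either level. A log2 ratio as high as that of ENO2 was found in 0.147% of windows of its length, for PGK1 the share was 0.378%, for ADH1 0.381%, for CDC19 0.453% and for TDH3 1.06%. For these shares 0.5 was added to each tag count, for gene and window alike.

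**Figure D2:**
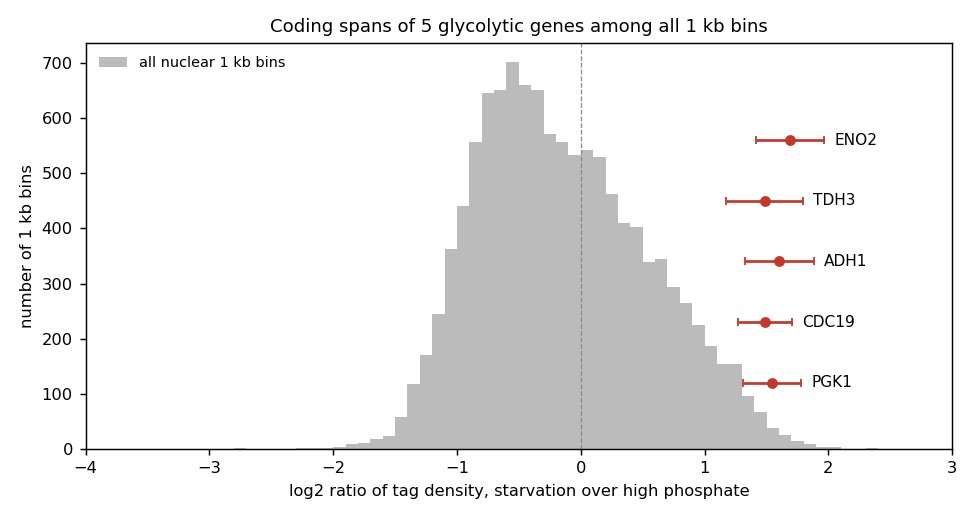
Number of nuclear 1 kb bins (grey) by log2 ratio of tag density, starvation over high phosphate, with the coding span of each gene as a point and its 95% exact conditional binomial interval as a bar; the height of the points has no meaning. The 5 points lie between 1.48 and 1.69, where few bins are found.

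The starvation excess ran along most of each coding span. Of 59 complete 100 bp tiles inside the 5 coding spans, 59 had a higher scaled density in starvation, against 31% of all tiles in the nuclear genome that held a tag. At least 2-fold higher were 44 of the 59, against 14.3% of all tiles. The incomplete tile at each coding end was left out. Near its coding end PGK1 had no moved starvation tag from 1188 to 1307 bp, where high phosphate had 6. Tiles of a gene share nucleosomes and fragments, so they are not replicates. By gene, the tiles at least 2-fold higher numbered 10 of 12 in PGK1, 8 of 15 in CDC19, 8 of 10 in ADH1, 7 of 9 in TDH3 and 11 of 13 in ENO2.

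Within the genes the tags were not spread alike. When each coding span was cut into parts of equal length, the part nearer the coding end of PGK1 held 198 starvation tags and the part nearer the start 124. For ADH1 these counts were 140 and 94, and for CDC19 212 and 160. In these genes density in starvation was higher toward the end, with log2 ratios of end part over start part of 0.67 (0.34 to 1.01), 0.57 (0.18 to 0.96) and 0.40 (0.10 to 0.71). ENO2 went the other way, with 92 starvation tags in the end part and 154 in the start part, a log2 ratio of −0.74 (−1.13 to −0.36). TDH3 held 83 and 97, a log2 ratio of −0.23 whose interval included 0 (−0.67 to 0.21). In ADH1 the stretch from 203 to 367 bp, inside the start part, had no tag at deposited positions in either library. How much of the gradient of ADH1 comes from that stretch was not tested.

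In high phosphate the gradient was different for some genes. TDH3 held 51 tags in the end part and 116 in the start part, a log2 ratio of −1.19 (−1.69 to −0.70). CDC19 held 200 and 144, a log2 ratio of 0.47 (0.16 to 0.79), close to its gradient in starvation. PGK1, ADH1 and ENO2 had log2 ratios of −0.10, −0.0028 and −0.23 with intervals that included 0. The starvation over high phosphate ratio of the end part was therefore highest in TDH3, at 4.22-fold (2.94 to 6.11), while its start part was 2.17-fold higher (1.64 to 2.87). PGK1 had 3.72-fold (2.98 to 4.66) in the end part and 2.17-fold in the start part, and ADH1 3.63-fold (2.79 to 4.74) and 2.44-fold. The end-part intervals of these genes overlap that of TDH3. CDC19 and ENO2 went the other way, with 2.75-fold and 2.62-fold in the end part and 2.88-fold and 3.73-fold in the start part.

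**Figure D3:**
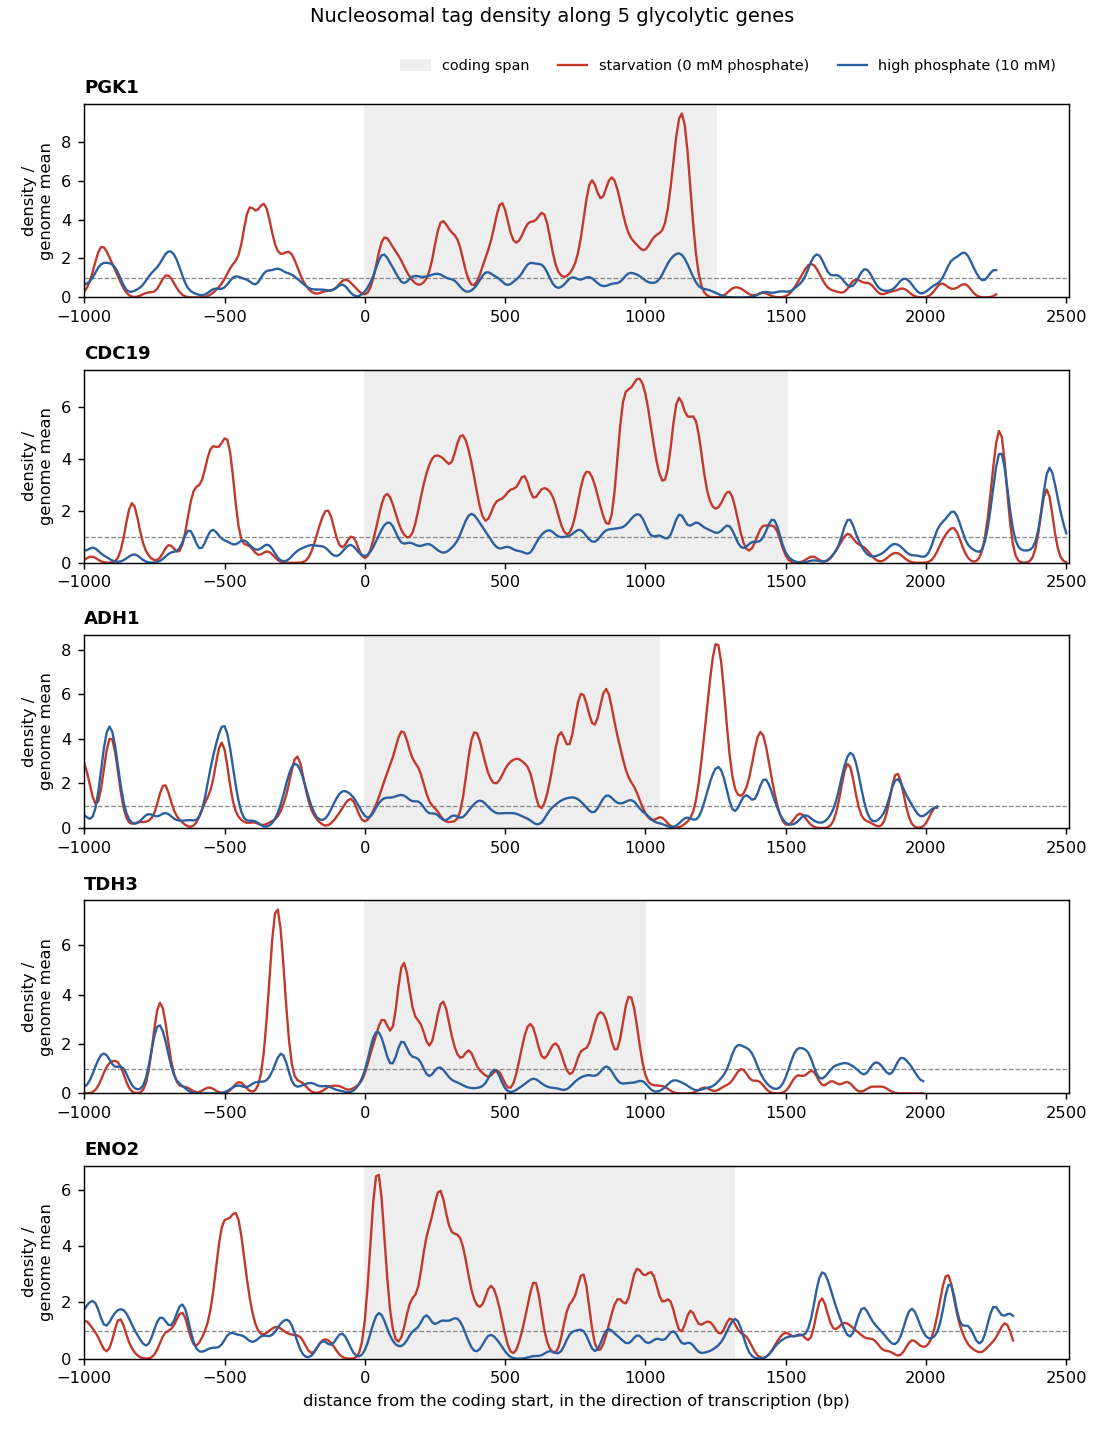
Smoothed density of moved tags divided by the mean density of the nuclear genome (vertical axis) against distance from the coding start in bp, for both libraries; grey marks the coding span and the dashed line the genome mean. The starvation line stands above the high phosphate line over most of each grey span, and both lines are low just before the coding start of TDH3, PGK1 and ENO2.

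The borders of the coding spans were visible in both libraries. These borders are known to within about 50 bp, and the steps at coding starts and ends were not recounted with moved spans. In starvation the first 200 bp of TDH3 held 52 tags and the 200 bp before them 3, which is 17.3-fold (5.61 to 86.8). The same counts were 46 and 4 for ENO2, 44 and 9 for ADH1, and 27 and 7 for PGK1. CDC19 had 26 and 17, a step of 1.53-fold whose interval included 1 (0.799 to 3.00). In high phosphate TDH3 held 77 tags after the start and 11 before it, PGK1 55 and 15, ENO2 39 and 19, and CDC19 40 and 22. ADH1 had 51 and 43 in that library, a step of 1.19-fold (0.775 to 1.82). The rise at the start was thus within counting error for CDC19 in starvation and for ADH1 in high phosphate, and above it in the other libraries and genes. Strands were uneven at some of these borders. Before the start of CDC19, 0 of 17 starvation and 0 of 22 high phosphate tags were on the plus strand. After the start of ADH1 these counts were 7 of 44 and 11 of 51, while ENO2 was nearer even, with 26 of 46 and 21 of 39. The steps were not examined by strand.

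Density fell again after the coding end at 4 genes. The last 200 bp of PGK1 held 69 starvation tags and the 200 bp after them 4, a fall of 17.3-fold (6.44 to 65.1), and the high phosphate counts were 55 and 4. TDH3 had 46 and 2 starvation tags, and 28 and 11 in high phosphate. CDC19 had 19 and 3 in starvation and 42 and 6 in high phosphate. At ADH1 the fall was smaller, with 46 and 26 starvation tags and 43 and 25 in high phosphate. ENO2 had 20 and 10 tags in starvation (95% interval of the fold 0.894 to 4.78) and 20 and 23 in high phosphate, so no fall beyond counting error was detectable there.

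Before the genes, short tag-poor stretches were present in both libraries, but the lowest was not always at the same place. They were read as the lowest point of the smoothed density in the 500 bp before the coding start. Any window has a lowest point, so its depth is favoured by the choice and is a description. No share over other windows was computed. Low points also occurred inside some coding spans in high phosphate, at 0.00428 of the genome mean in ENO2 (550 bp) and 0.0602 in TDH3 (520 bp). At PGK1 the lowest point lay at −1 bp in starvation and at −28 bp in high phosphate, at 0.158 and 0.0608 of the genome mean. At CDC19 it lay at −257 and −288 bp, inside runs below 0.5 of the genome mean that spanned 211 bp and 93 bp, respectively. These 2 genes thus had their minima at similar places in the libraries.

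At the other genes the single lowest points were apart, but values nearly as low lay at further places. ENO2 had its lowest point at −53 bp in starvation, in a run of 103 bp, and at −203 bp in high phosphate, in a run of 72 bp. ADH1 had it at −138 and −353 bp. At TDH3 the lowest point in high phosphate was at −59 bp, inside a run of 244 bp. In starvation it was at −500 bp, the edge of the searched window, in a run of 296 bp that reached farther upstream. The 100 bp around these points held 0 to 3 starvation tags and 3 to 6 high phosphate tags, so the place of a single minimum is poorly fixed at this depth. At TDH3 high phosphate was also low at −500 bp (0.0555 of the genome mean), and lower still at −560 bp (1.7e-05), outside the searched window. Starvation was at 0.0280 at −170 bp of TDH3 and at 0.143 at −360 bp of ADH1. High phosphate was at 0.0852 at −20 bp of ENO2. A difference in tag-poor places between the libraries is therefore not shown by these minima.

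A dense peak stood upstream in starvation at 4 of the 5 genes where high phosphate had none of similar height. It was picked as the highest starvation peak between 600 and 200 bp before the coding start, so its height and the density around it are favoured by the choice and are descriptions. At TDH3 it lay at −313 bp and reached 7.49 times the genome mean, where high phosphate had 1.38. The 150 bp around it held 42 starvation tags and 27 high phosphate tags. At ENO2 it lay at −463 bp and reached 5.19 times the mean against 0.890, with 51 and 22 tags.

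PGK1 and CDC19 showed the same contrast. Their upstream peaks lay at −362 and −496 bp and reached 4.81 and 4.82 times the genome mean, against 1.19 and 0.845 in high phosphate. Scaled for depth, the 150 bp around the 4 peaks had 3.60 to 6.02 times the starvation density of high phosphate. Around the 10082 nuclear starvation peaks that were at least as high as the lowest of the 5 upstream peaks, 71.6% of such 150 bp stretches were at least 2-fold higher in starvation, so 4 of 5 is close to that share. At ADH1 the peak at −510 bp reached 3.83 times the mean in starvation, and high phosphate had 4.54 there, with 25 and 92 tags.

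Over the whole 1000 bp before the coding start, levels in starvation were 1.08 to 1.41. CDC19 had 96 starvation and 107 high phosphate tags there, a log2 ratio of 1.22 (0.81 to 1.63). It was the 1 of 5 genes at least 2-fold higher, where 6.44% of 1 kb bins were. The high phosphate level of this flank was low, at 0.476 (0.390 to 0.575). The 20000 bp around CDC19 also had a log2 ratio above 0, at 0.59, and the flank was not rescaled to them. TDH3 had 80 and 132 tags (log2 ratio 0.65, 0.23 to 1.06), PGK1 104 and 190 (0.51, 0.15 to 0.86) and ENO2 100 and 199 (0.38, 0.021 to 0.74). ADH1 had 96 and 290, a log2 ratio of −0.22 whose interval included 0 (−0.57 to 0.12). The flank before the gene was higher in starvation beyond counting error at 4 of 5 genes, as were 23.8% of 1 kb bins, and its ratio was below that of the coding span at all 5, with overlapping intervals at CDC19.

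The 1000 bp after the coding end had lower density in starvation at 4 of 5 genes, each beyond counting error. Among 1 kb bins 60.9% were lower in starvation, and 40.2% were lower beyond counting error, so lower values were common in this pair of libraries. Over all these bins the median log2 ratio was −0.23. TDH3 had 24 starvation and 185 high phosphate tags there, with a log2 ratio of −1.57 (−2.25 to −0.95), and was the 1 of 5 genes at least 2-fold lower, where 9.4% of 1 kb bins were. PGK1 had 35 and 180 tags (−0.99, −1.55 to −0.46), CDC19 62 and 228 (−0.50, −0.93 to −0.092) and ENO2 72 and 261 (−0.48, −0.88 to −0.10). Of the 5, ADH1 alone was higher after its end (132 and 237 tags, log2 ratio 0.53, 0.21 to 0.84). The tags after ADH1 were concentrated near 1254 bp from its start, where the starvation density reached 8.31 times the genome mean and high phosphate 2.74 times at 1259 bp. These flanks reach toward other genes. In the R64 table the next gene after the coding end is HIP1 for TDH3, POL4 for PGK1, CTR2 for ENO2, YAL037C-A for CDC19 and MHF1 for ADH1.

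Coding spans stood out from their own flanks in starvation and not uniformly in high phosphate. Coding density over the mean of both flanks was 3.70-fold (3.03 to 4.55) in PGK1 in starvation. It was 3.47-fold (2.71 to 4.45) in TDH3, 3.13-fold (2.59 to 3.80) in CDC19, 2.18-fold (1.78 to 2.66) in ENO2 and 1.96-fold (1.63 to 2.36) in ADH1. In high phosphate PGK1 and CDC19 were above their flanks, by 1.24-fold (1.06 to 1.45) and 1.37-fold (1.17 to 1.59). ENO2 and ADH1 were below them, at 0.655 (0.552 to 0.776) and 0.725 (0.613 to 0.855) times the flank density. TDH3 was at 1.05 times its flanks with an interval that included 1 (0.869 to 1.28). With flanks of 500 bp the log2 ratio of CDC19 moved from 1.65 to 2.28 in starvation and from 0.45 to 1.15 in high phosphate, and that of TDH3 in high phosphate was 0.55.

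The wider surroundings did not share the excess at 4 genes. In the 20000 bp beyond the flanks, 10 kb on each side, log2 ratios were −0.30 (−0.39 to −0.21) around PGK1, −0.11 (−0.19 to −0.026) around TDH3, −0.020 (−0.095 to 0.053) around ADH1 and 0.061 (−0.016 to 0.14) around ENO2. Around CDC19 it was 0.59 (0.52 to 0.66), and chromosome 1 as a whole stood at 0.21. Relative to these surroundings the coding ratio was 3.60-fold for PGK1, 3.09-fold for ENO2, 3.08-fold for ADH1, 3.01-fold for TDH3 and 1.86-fold for CDC19. Scaled in this way CDC19 was no longer 2-fold higher. Chromosome 3, which carries PGK1, had a log2 ratio of 0.17 as a whole.

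**Figure D4:**
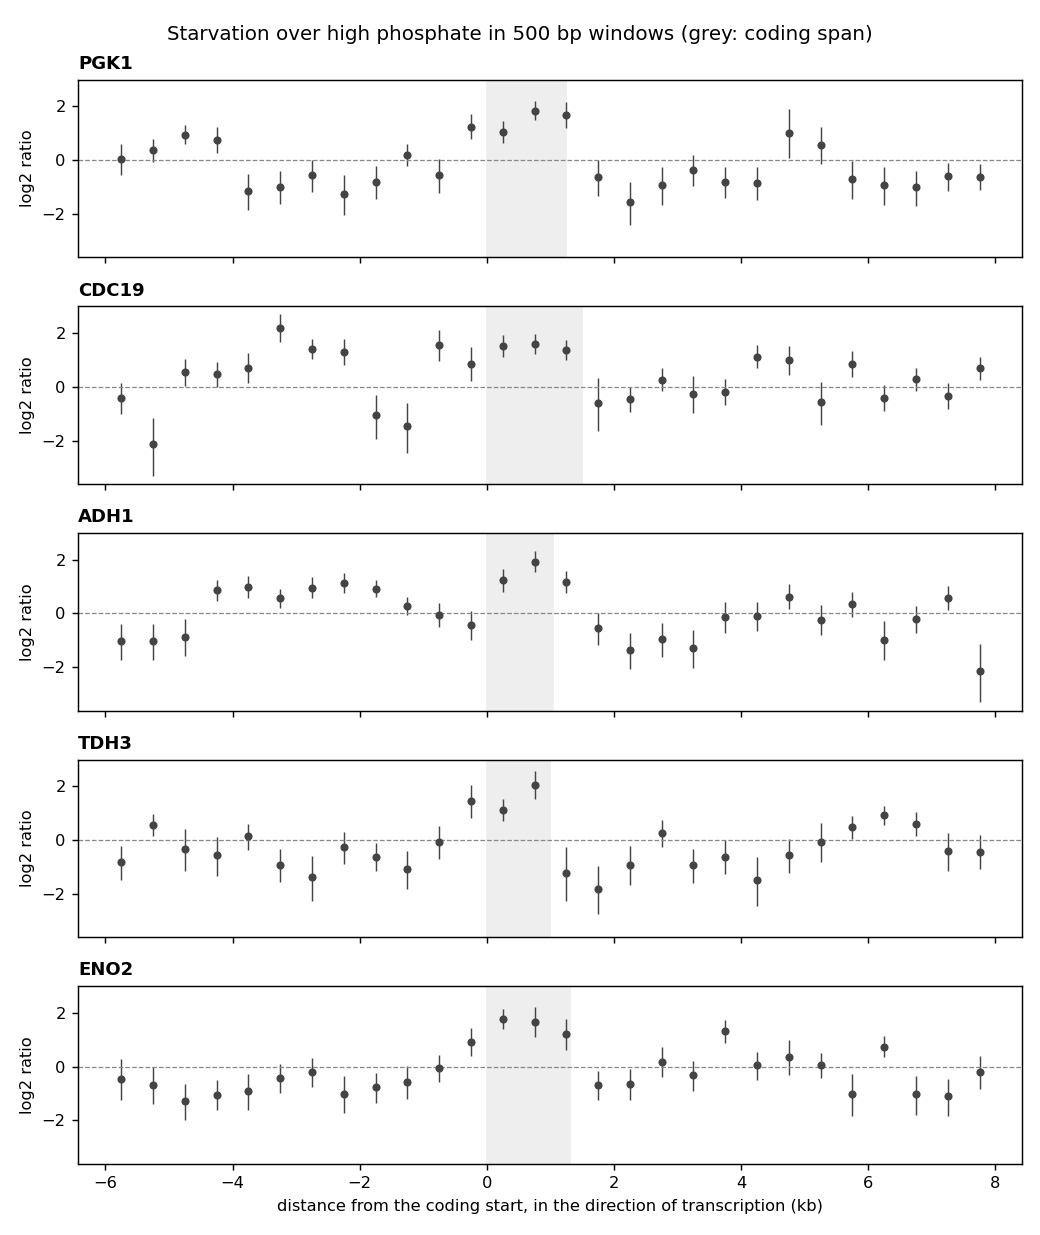
Log2 ratio of starvation over high phosphate in 500 bp windows (vertical axis, bars are 95% exact conditional binomial intervals) against distance from the coding start in kb; grey marks the coding span. The windows that start at 0, 500 and 1000 bp inside a coding span have log2 ratios above 1, and some windows outside the coding spans do too. Some of the windows that start at 1000 bp reach past the coding end, and that of ADH1 lies mostly after it.

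Tag density peaks along the genes were compared as estimates of nucleosome midpoints. A peak was a local maximum above the genome mean at least 120 bp from any higher one. The first peak inside the coding span lay close in the libraries at 4 genes. It was at 46 and 51 bp in ENO2, 73 and 66 bp in PGK1, 79 and 84 bp in CDC19, and 134 and 130 bp in ADH1, in starvation and high phosphate. In TDH3 it was called at 138 and 45 bp, and a lower starvation maximum near the latter place lay within 120 bp of the higher peak and was not called. The first peak was higher relative to the genome mean in starvation at all 5 genes, 2.66 to 6.62 against 1.49 to 2.50. The whole coding spans were 2.80 to 3.22 times as dense in starvation, so this is not particular to the first peak. No share over other peaks was computed.

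Over whole coding spans, from 25% to 60% of starvation peaks had a partner. In CDC19, 4 of 8 starvation peaks had a high phosphate peak within 20 bp, including neighbours at 975, 1120 and 1296 bp with partners at 973, 1123 and 1293 bp. The share was 3 of 6 in PGK1, 3 of 5 in ADH1, 2 of 8 in ENO2 and 1 of 4 in TDH3. Stretches within 20 bp of any high phosphate peak made up 10.4% to 22.9% of the coding spans. Over the whole region of ADH1, flanks included, 10 of 14 starvation peaks had such a partner, against 8 of 15 for CDC19, 5 of 10 for PGK1, 3 of 7 for TDH3 and 5 of 16 for ENO2. In ENO2 the high phosphate library gave 3 coding peaks, of 1.05 to 1.63 times the genome mean, where starvation gave 8. Only maxima above the genome mean of a library were called, and the coding level of ENO2 was 0.670 in high phosphate and 2.53 in starvation. Peak numbers and partner shares are therefore not separate from the levels. Along the 100 bp tiles of a coding span, Pearson's r between the tag counts of the libraries was 0.24 for PGK1 (12 tiles), 0.54 for CDC19 (15), 0.67 for ADH1 (10), 0.71 for TDH3 (9) and 0.90 for ENO2 (13). The tiles share sequence and placement between libraries, so these are descriptions.

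Near-identical paralogues remove unique placements, so stretches of 100 bp or more without tags were listed. The tags of these genes can resemble TDH2 and TDH1 for TDH3, ENO1 for ENO2 and ADH2 for ADH1. With tags at their deposited positions, 2 stretches were empty in both libraries. One was in ADH1 from 203 to 367 bp (165 bp) and the other in TDH3 from 371 to 505 bp (135 bp), both inside the coding span. How much of them can be placed uniquely was not tested. After tags had been moved by 73 bp toward the fragment middle, 0 stretches were empty in both libraries, since moved tags enter from the sides, and 4.74% of all nuclear 100 bp tiles were. The part of these stretches in the coding levels and in the gradients along ADH1 and TDH3 was not tested.

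With moved tags, 21 stretches were empty in starvation and 5 in high phosphate, and with tags at their deposited positions 12 and 2. None of the 21 stretches with moved tags lay inside a coding span: 7 were before the genes, 11 after them and 3 crossed a coding start or end. The high phosphate library had 1 to 32 tags in them. Genome-wide, 9.85% of fixed 100 bp tiles held no tag in starvation and 4.9% in high phosphate. The stretches were counted at any offset, so these shares are a different measure and do not show whether the stretches were many or few. The single stretch inside a coding span was in ENO2 from 490 to 602 bp in high phosphate. At deposited positions, 20 starvation tags and 9 high phosphate tags lay in that stretch.

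Over whole coding spans, tags of both strands contributed, while some 200 bp edges were one-sided as given above. The plus strand gave 46.1% to 58.6% of the starvation tags and 47.0% to 55.7% of the high phosphate tags in the coding spans. The interval excluded 50% in 1 of these 10 cases, CDC19 in starvation, with 218 of 372 tags on the plus strand (58.6%, exact binomial interval 53.4% to 63.7%). Of all position and strand combinations in the coding spans, 9.01% to 12.9% were filled in starvation and 7.53% to 11.4% in high phosphate, against 4.16% and 10.8% genome-wide. Repeat tags at a position had been collapsed before deposit, and with the correction for filled positions the coding ratios stayed within their intervals.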

How the data were processed

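Each deposited file lists chromosome, position and strand of uniquely placed tags. Per the labels' protocols they came from an Illumina Genome Analyzer and were placed on the October 2003 yeast release. Aligner and read length: not given in the sources used here. Neither file held a repeated position and strand (0 rows), so the authors had collapsed repeats. The members, lists and measures were chosen with earlier results of these data known. The coding spans used are approximate (about 50 bp) on the files' build. They coincide with RefSeq R64, so coordinates are printed only rounded to 100 bp, and the table served for names and neighbours. All 5 members are named. Other glycolytic genes were not analysed here. Tags were moved 73 bp toward the fragment middle and scaled to nuclear totals. Profiles used a Gaussian SD of 20 bp. Python 3.11.15, numpy 2.4.6 and scipy 1.17.1 were used, and the functions were tested on simulated data. Tags are not independent molecules, so the intervals hold for counting error alone. Alternatives changed scaling, tag shift, span, flanks, smoothing, depth, strand and a correction for filled positions.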

Additional observations from a re-analysis of the deposited data

How the results depend on the processing

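No paired analysis was possible because a condition was represented by 1 library only, and no library could be left out. The coding log2 ratio stayed above 0 for all 5 genes under 10 alternatives each, between 0.90 and 1.85. Leaving out stretches empty in both libraries could change nothing, since 0 were empty with moved tags. The scaling to the 10 kb on both sides and the single strands were added after the data were seen. With that scaling PGK1 moved to 1.85 and CDC19 to 0.90, and with minus-strand tags alone CDC19 had 1.26. Scaling to the median 10 kb bin raised every log2 ratio by 0.073. With unmoved tags the starvation level of TDH3 was 2.08, and coding over flank log2 ratios were 1.21 for TDH3 and 0.84 for ENO2 in starvation and −0.21 for TDH3 in high phosphate. With flanks of 500 bp that ratio was 1.42 for PGK1 and 2.28 for CDC19 in starvation, and 0.63, 1.15 and 0.55 for PGK1, CDC19 and TDH3 in high phosphate. With smoothing of SD 30 bp TDH3 had 1 coding peak in high phosphate. Stretches without tags, counted with unmoved tags, numbered 1 in PGK1 and 1 in ENO2 in starvation, and 0 in PGK1, 0 in CDC19, 1 in ADH1 and 0 in ENO2 in high phosphate. The causes of these shifts were not tested. Depth limits single peaks and minima more than coding spans, which held 167 to 372 tags each.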
